A study of Mus musculus with 4 samples.

Results

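Mitochondrial ribosomal proteins are the protein components of the ribosome inside mitochondria, and their genes were examined here as a set. Gene names beginning with Mrpl or Mrps and a number were selected on the array, which gave 77 genes (48 Mrpl, named for the large subunit, and 29 Mrps, named for the small subunit) covered by 103 probes. Of these, 76 genes (47 Mrpl and 29 Mrps) were well above background on at least 1 array, and all 76 were so on all 4 arrays. The single probe of Mrpl21 was not well above background on any array, so that the results below rest on 76 of the 77 genes, out of 22753 gene names well above background on at least 1 array and 35699 on the array. The selection used gene names and no measured difference.

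Mitochondria translate the few proteins encoded in their own DNA, all of them core subunits of the respiratory chain and ATP synthase. They use a dedicated ribosome whose RNAs come from mitochondrial DNA and whose proteins are encoded in the nucleus, made in the cytosol and imported. The small subunit decodes the messenger and the large subunit forms peptide bonds at the inner membrane. Many of its proteins have bacterial counterparts, and others occur only in mitochondrial ribosomes. Rod photoreceptors hold densely packed mitochondria in their inner segments.

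The samples were 3D-retinas, retina-like tissues grown in suspension from mouse Nrl-GFP induced pluripotent stem cells, in which GFP marks cells of the rod lineage. Tissues were picked for bright GFP, treated from differentiation day 23 and collected on day 25. The vehicle group received ethanol, and the other 3 groups received 5 µM 4-hydroxytamoxifen (4-OHT), an active metabolite of tamoxifen. It was given alone, with 400 µM vitamin E (an antioxidant vitamin) or with 200 nM lutein (a carotenoid of the retina). Each group was 1 RNA sample from 24 tissues on 1 array, so no difference has a replicate check, and no test between groups was possible. No array had a supplement without 4-OHT.

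Values are log2 signals after subtraction of each array's 75th percentile over gene spots, called log2 levels here; a difference between arrays is given as a log2 difference. Each gene is represented by its brightest probe. Each array had 59305 gene spots, of which 51.3% to 54.5% were well above background and none was saturated. The 4 arrays shared 1 slide, where each group had its own position, so these cannot be told apart. For probes printed as 10 spots, the median SD between spots was 0.062 to 0.073 on the log2 scale, which gives 0.093 to 0.101 for a difference between 2 arrays. This is the only error these arrays provide, and it contains no variation between cultures.

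The oligonucleotides that read out the members at both ends of the range are shown first, as printed on the array, 5′ to 3′, with positions in the mm9 build. Mrpl18 had the lowest difference between 4-OHT and vehicle, Mrps10 was among the lowest small subunit genes, and Mrpl52 and Mrps6 had the highest differences of each subunit. No part of these 4 is capitalised.
Mrpl18, chr17:13104338-13104397, minus strand: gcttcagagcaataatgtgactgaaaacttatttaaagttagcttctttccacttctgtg
Mrps10, chr17:47515561-47515620, plus strand: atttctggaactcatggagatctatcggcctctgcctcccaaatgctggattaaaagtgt
Mrpl52, chr14:55048507-55048566, plus strand: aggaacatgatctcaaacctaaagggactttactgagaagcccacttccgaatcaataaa
Mrps6, chr16:92112223-92112282, plus strand: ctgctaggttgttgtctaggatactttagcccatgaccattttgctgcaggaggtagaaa

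The first comparison asked how 4-OHT altered the expression of these genes. Mitochondrial ribosomal protein genes were lower on the 4-OHT array than on the vehicle array almost throughout, each by a small amount. The median log2 difference was -0.45 (1.37-fold lower), with quartiles of -0.58 and -0.29 and a range from -0.95 to 0.22. The difference was below 0 for 73 of 76 members, against 55.0% of the 22064 genes measured in this comparison and 60.5% of the 14088 among them that RefSeq lists as protein-coding. The median over all measured genes was -0.06 and over protein-coding genes -0.13.

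No member was 2-fold different in either direction, a size passed by 10.9% of all genes. At a limit of 1.5-fold, 19 of 76 members were lower, against 13.5% of all genes and 14.9% of protein-coding genes. None was 1.5-fold higher, against 15.1% of all genes. Most members thus shared a direction, with modest differences one by one. With quantile normalization the median was -0.28 and 8 members were 1.5-fold lower, against 14.4% of all genes, so the members' share past this limit was then below that of all genes. With scaling to external spike-in RNA the median was -0.70 and 53 members were 1.5-fold lower, against 27.6% of all genes, and 4 members passed 2-fold, against 12.8%. Spike-in scaling moves every gene of a comparison by the same amount, and the median of all genes was then -0.31. Relative to the median of all genes, the members' median was -0.39 with 75th percentile or spike-in scaling, which is the same by construction, and -0.21 with quantile normalization.

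Members gave bright signals, and signal level moved with the difference. The 19371 genes well above background on all 4 arrays were divided by mean signal into 4 classes of equal size. The brightest class held 52 members, the next 19, the one below 5 and the dimmest 0. The median log2 difference of all genes was -0.17 in the brightest class, where the 52 members had a median of -0.46. In the next class the medians were -0.16 for all genes and -0.40 for the 19 members. In the class below, they were -0.06 for all genes and -0.31 for the 5 members. In all 3 classes that held members, the members' median was lower than that of all genes.

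**Figure D1:**
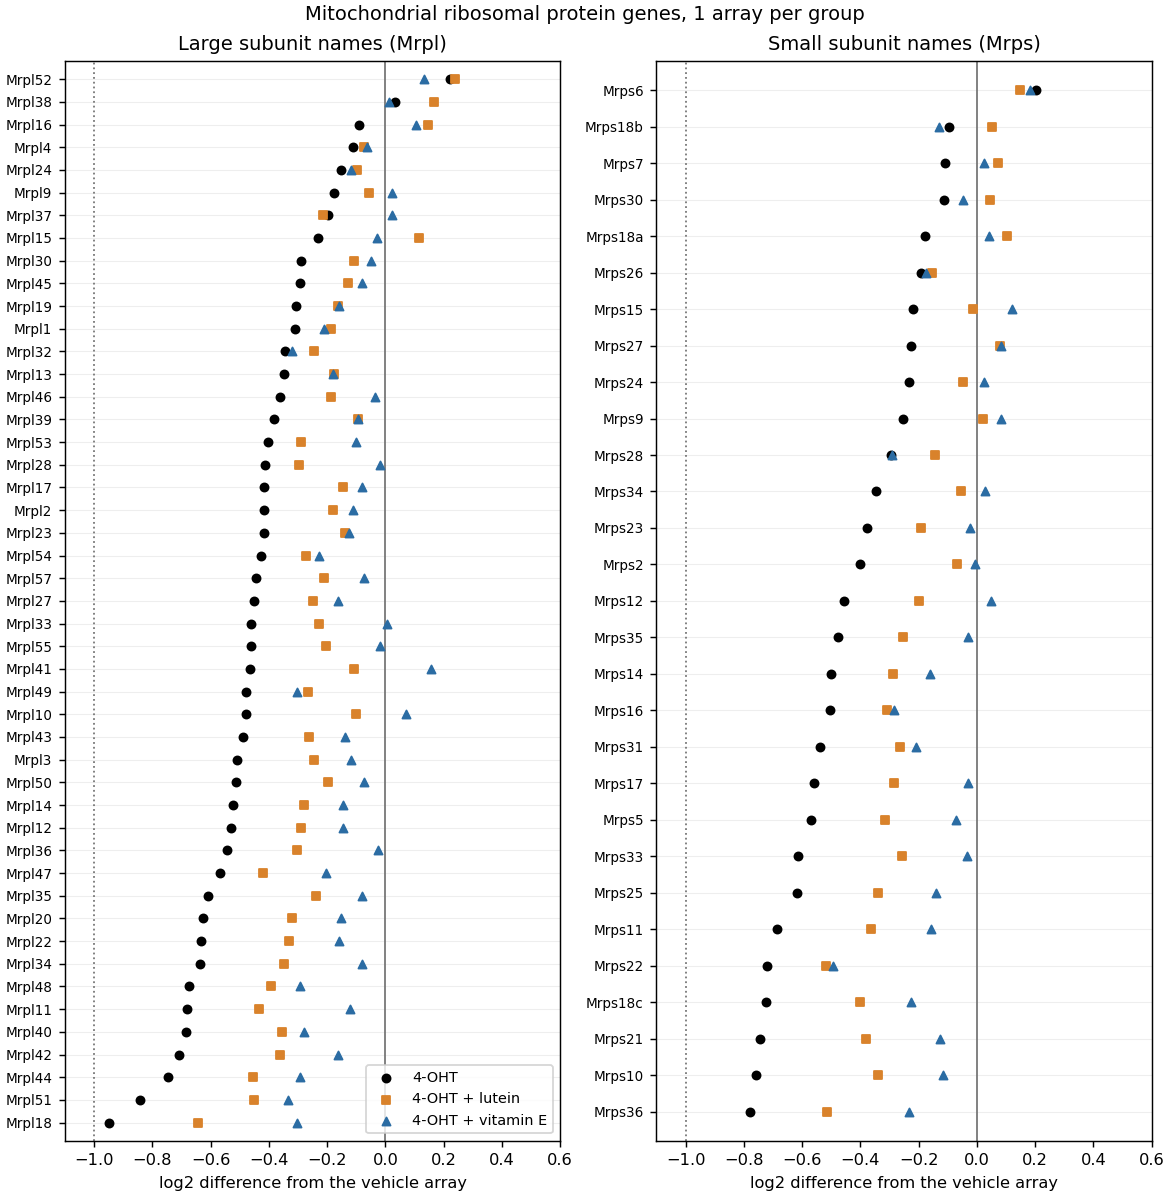
Log2 difference from the vehicle array (horizontal axis) for each of 47 Mrpl genes (left) and 29 Mrps genes (right) on the arrays of 4-OHT (black circles), 4-OHT with lutein (orange squares) and 4-OHT with vitamin E (blue triangles), 1 array per group and no error bars. Genes are ordered by the 4-OHT value; most black circles lie left of 0, from -0.95 for Mrpl18 to 0.22 for Mrpl52, and the dotted line marks a 2-fold lower signal.

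Mrpl18, a large subunit protein with a bacterial counterpart, had log2 levels of 3.82 with vehicle, 2.87 with 4-OHT, 3.51 with added vitamin E and 3.17 with added lutein. Its 4-OHT level was the lowest and its log2 difference from vehicle was -0.95. Mrpl51, found only in mitochondrial ribosomes, had log2 levels of 5.89, 5.04, 5.55 and 5.43 in the same order of arrays, a log2 difference of -0.84 between 4-OHT and vehicle. Both genes had the vehicle array highest, then vitamin E, then lutein, then 4-OHT. The next large subunit genes were Mrpl44, whose protein resembles a ribonuclease III, with a log2 difference of -0.75, Mrpl42 with -0.71 and Mrpl40 with -0.69.

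Among small subunit genes Mrps36 had the lowest log2 difference, -0.78. Its product, also known as KGD4, is a component of the 2-oxoglutarate dehydrogenase complex and is absent from structures of the mitochondrial ribosome, so its name overstates its place here. Mrps10, a counterpart of bacterial S10, had log2 levels of 3.79 with vehicle, 3.03 with 4-OHT, 3.67 with vitamin E and 3.45 with lutein. The log2 difference between 4-OHT and vehicle was -0.76 for Mrps10, -0.74 for Mrps21, -0.72 for Mrps18c and -0.72 for Mrps22. Mrps21 and Mrps18c have bacterial counterparts, whereas Mrps22 is a mitochondrial addition.

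Of 76 members, 3 were not lower with 4-OHT under 75th percentile scaling. With spike-in scaling all 76 were below 0, these 3 among them, against 72.0% of all genes. With quantile normalization 67 were below 0 and 9 above, against 56.2% of all genes below 0. Mrpl52, a mitochondrial addition to the large subunit, had log2 levels of 4.73 with vehicle, 4.96 with 4-OHT, 4.87 with vitamin E and 4.97 with lutein. The vehicle array was the lowest of the 4, and the log2 difference between 4-OHT and vehicle was 0.22, which with spike-in scaling was -0.02. Mrps6, a counterpart of bacterial S6, had log2 levels of 3.59, 3.79, 3.78 and 3.74 in the same order of arrays and a log2 difference of 0.20. Under 75th percentile scaling its 3 arrays with 4-OHT lay close together above vehicle. Mrpl38 had a log2 difference of 0.03, less than the spot SD. The next highest large subunit genes were below 0, Mrpl16 with -0.09, Mrpl4 with -0.11 and Mrpl24 with -0.15.

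The large and small subunit genes were lower by like amounts. The median log2 difference between 4-OHT and vehicle was -0.450 for 47 Mrpl genes (quartiles -0.56 and -0.33) and -0.457 for 29 Mrps genes (quartiles -0.61 and -0.23). The medians differed by 0.0064, and by between -0.082 and 0.032 over the alternative settings, while the SD over genes was 0.22 for Mrpl and 0.25 for Mrps. The difference was below 0 for 45 of 47 Mrpl and 28 of 29 Mrps genes, against 55.0% of all genes. At least 1.5-fold lower were 11 Mrpl (23.4%) and 8 Mrps genes (27.6%), against 13.5% of all genes. With quantile normalization 8 of all 76 members were, against 14.4%.

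Names and places in the ribosome do not always match. Mrps30 and Mrps18a lie in the large subunit in structures of the mammalian mitochondrial ribosome, and their log2 differences between 4-OHT and vehicle were -0.11 and -0.18. With both moved to the large subunit and Mrps36 left out, the medians were -0.445 for 49 large subunit genes and -0.467 for 26 small subunit genes. Kinship to bacterial proteins gave like values too. In the large subunit the medians were -0.450 for 29 genes with bacterial counterparts and -0.436 for 20 mitochondrial additions, and in the small subunit they were -0.478 for 16 and -0.427 for 10.

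**Figure D2:**
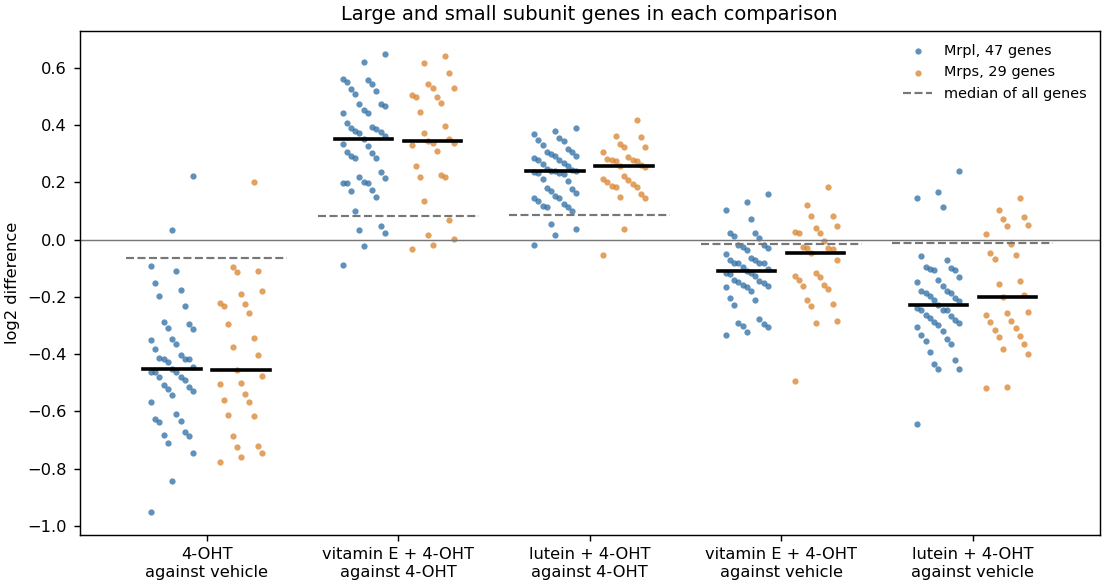
Log2 difference (vertical axis) of each Mrpl gene (blue, 47) and Mrps gene (orange, 29) in 5 comparisons between single arrays; thick black lines are medians over genes and dashed grey lines are medians over all genes measured. The medians of both subunits lie close together in each comparison, at -0.450 and -0.457 for 4-OHT against vehicle.

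Proteins with known roles spread over most of this range. Mrpl12, the counterpart of the bacterial L7/L12 stalk protein, had log2 levels of 4.14 with vehicle, 3.61 with 4-OHT, 4.00 with vitamin E and 3.85 with lutein, so 4-OHT was again lowest. Its log2 difference between 4-OHT and vehicle was -0.53. Mrpl3, in the core of the large subunit, had -0.51, Mrpl47 had -0.57 and Mrpl55 -0.46. Mrpl45, which lies at the exit of the peptide tunnel facing the membrane, had -0.29.

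In the small subunit, Mrps12, part of the decoding centre, had log2 levels of 4.52 with vehicle, 4.06 with 4-OHT, 4.57 with vitamin E and 4.32 with lutein. The vitamin E and vehicle arrays were level within the spot SD, and the 4-OHT array was lower by a log2 difference of -0.46. Mrps16 had a log2 difference of -0.50 between 4-OHT and vehicle, Mrps34 -0.34, Mrps28 -0.29 and Mrps24 -0.23.

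Mammals carry 3 relatives of bacterial S18, and these differed from one another. Mrps18c had log2 levels of 3.94 with vehicle, 3.22 with 4-OHT, 3.72 with vitamin E and 3.54 with lutein, with 4-OHT lowest by -0.72 against vehicle. Mrps18a had 3.65, 3.47, 3.69 and 3.75, and Mrps18b had 3.78, 3.69, 3.65 and 3.83, in the same order of arrays. Their log2 differences between 4-OHT and vehicle were -0.18 for Mrps18a and -0.10 for Mrps18b, the latter about the spot SD.

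For 3 members the brightest probe was printed in 10 spots, which shows the precision within an array. Mrpl34 had a mean log2 level of 4.26 ± 0.055 (SD over 10 spots) with vehicle, 3.62 ± 0.056 with 4-OHT, 4.17 ± 0.058 with vitamin E and 3.91 ± 0.050 with lutein. The spots of the 4-OHT array reached at most 3.69, and those of the vehicle array were at least 4.14, so the spots of these arrays did not overlap. Mrps35 had 1.69 ± 0.030 with vehicle, 1.22 ± 0.051 with 4-OHT, 1.66 ± 0.050 with vitamin E and 1.44 ± 0.054 with lutein (SD over 10 spots). Mrpl50 had 3.24 ± 0.038 with vehicle (8 spots), 2.73 ± 0.059 with 4-OHT (9 spots), 3.17 ± 0.052 with vitamin E (9 spots) and 3.04 ± 0.043 with lutein (10 spots). In each of these genes the 4-OHT spots lay below all spots of the vehicle array, and these are spots of 1 RNA sample per group.

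The second comparison asked what vitamin E altered when given with 4-OHT. Members were higher with vitamin E and 4-OHT than with 4-OHT alone, by a median log2 difference of 0.35 (quartiles 0.21 and 0.48, range -0.09 to 0.65). The difference was above 0 for 72 of 76 members, against 56.9% of 22133 genes, and the median of all genes was 0.08. Protein-coding genes had a median of 0.17, with 9311 of 14136 above 0. In the brightest signal class, which held 52 members, the medians were 0.21 for all genes and 0.37 for members. No member was 2-fold different, against 10.3% of all genes. At 1.5-fold, 4 members were higher, against 8.55% of all genes, and none was lower, against 15.6%.

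Those 4 genes were Mrpl18 with a log2 difference of 0.65, Mrps10 with 0.64, Mrpl41 with 0.62 and Mrps21 with 0.62. The lowest values were -0.09 for Mrpl52, -0.03 for Mrps18b and -0.02 for Mrpl38, all within the spot SD. The medians were 0.350 for Mrpl and 0.343 for Mrps. With quantile normalization the median was 0.22 over members and 0.10 over all genes. With spike-in scaling it was 0.69 over members and 0.43 over all genes, and 51 members were 1.5-fold higher, against 35.6% of all genes.

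With lutein and 4-OHT, members were higher than with 4-OHT alone by a median log2 difference of 0.24 (quartiles 0.17 and 0.29, range -0.05 to 0.42). The difference was above 0 for 74 of 76 members, against 61.8% of 21977 genes, and the median of all genes was again 0.08. Protein-coding genes had a median of 0.13, with 9751 of 14051 above 0. In the brightest signal class the medians were 0.15 for all genes and 0.24 for members. No member passed 2-fold, against 4.98% of all genes, and none passed 1.5-fold upwards or downwards, against 3.84% and 9.13%. The highest were Mrps10 with 0.42, Mrpl51 with 0.39 and Mrpl10 with 0.38, and those below 0 were Mrps6 with -0.05 and Mrpl37 with -0.02. The medians were 0.238 for Mrpl and 0.257 for Mrps. With quantile normalization the median was 0.13 over members and 0.06 over all genes. Relative to all genes the members' median was then 0.07, less than the spot SD of 0.093. With spike-in scaling the median was 0.42 over members and 0.26 over all genes. Both comparisons use the 4-OHT array that also entered the first comparison, so none of the 3 is independent of the others.

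Both supplemented arrays were also set against vehicle. With vitamin E and 4-OHT the median log2 difference of the members from vehicle was -0.10 (quartiles -0.16 and -0.02), and 59 of 76 were below 0, against 52.9% of 21345 genes. None passed 2-fold, against 3.07% of all genes, and none passed 1.5-fold downwards or upwards, against 6.62% and 4.40%. With spike-in scaling the median was 0.0027, with 38 members below and 38 above 0, against 36.1% of all genes below 0. The all-gene median went from -0.02 to 0.09 under it, and 58 of 76 members lay below that median with either scaling, as a common shift requires. The lowest gene was Mrps22 with log2 levels of 2.47 with vehicle, 1.75 with 4-OHT, 1.98 with vitamin E and 1.95 with lutein. It was lower than vehicle on every treated array, by -0.49 with vitamin E. Mrpl51 followed with -0.33 and Mrpl32, a large subunit protein with a bacterial counterpart, with -0.32.

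With lutein and 4-OHT the median log2 difference from vehicle was -0.22 (quartiles -0.31 and -0.10), and 65 of 76 members were below 0, against 51.5% of 21341 genes. None passed 2-fold, against 4.93% of all genes. Mrpl18, with -0.64, was the member 1.5-fold lower, against 5.81% of all genes, and none was 1.5-fold higher, against 9.19%. Mrps22 and Mrps36 followed with -0.52 each. The medians from vehicle were -0.228 for Mrpl and -0.200 for Mrps with lutein, and -0.111 and -0.047 with vitamin E.

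Across the 4 arrays, 71 of 76 members had their lowest level on the 4-OHT array, against 48.1% of the 19371 genes well above background on all arrays. The full order from vehicle through vitamin E and lutein down to 4-OHT held for 49 members (33 of 47 Mrpl and 16 of 29 Mrps), against 20.8% of genes. Among protein-coding genes 54.0% were lowest with 4-OHT and 24.2% held the full order. It also held for 75 of 82 nuclear genes for oxidative phosphorylation subunits and for 6 of 79 cytosolic ribosomal protein genes, so it was not particular to the members. Of all 76 members, 56 were highest with vehicle, 11 with vitamin E, 8 with lutein and 1 with 4-OHT, which was Mrps6. With quantile normalization 62 members were lowest on the 4-OHT array, against 47.0% of genes, and with spike-in scaling 76, against 70.3%. That order was singled out with earlier results of these data known. Of the 49 genes, 21 had all 3 steps above the spot SD of a difference.

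Some genes were read by more than 1 probe. In 24 genes, 25 further probes were detected on both the vehicle and 4-OHT arrays. Of these, 22 had the sign of the brightest probe, their median log2 difference was -0.44, and the median gap to the brightest probe was 0.060. Mrpl40 has a pair of probes that share 52 bases, capitalised below.
Mrpl40, brightest, chr16:18872311-18872370, minus strand: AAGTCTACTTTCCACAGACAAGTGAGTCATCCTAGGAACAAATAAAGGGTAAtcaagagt
Mrpl40, other, chr16:18872319-18872378, minus strand: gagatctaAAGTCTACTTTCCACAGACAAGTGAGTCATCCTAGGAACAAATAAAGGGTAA
The log2 difference between 4-OHT and vehicle was -0.69 for the first and -0.67 for the second, closer than the spot SD.

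For 6 further probes the gap exceeded 2 spot SDs. Mrps25 had the largest, and its probes, shown because they pointed in opposite directions, lie on the same strand and share no stretch longer than 5 bases.
Mrps25, brightest, chr6:92124834-92124893, minus strand: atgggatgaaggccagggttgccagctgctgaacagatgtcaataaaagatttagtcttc
Mrps25, other, chr6:92119530-92119589, minus strand: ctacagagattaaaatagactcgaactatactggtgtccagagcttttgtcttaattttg
The brightest probe had log2 levels of 3.90 with vehicle, 3.28 with 4-OHT, 3.76 with vitamin E and 3.56 with lutein. The other had -0.56, -0.07, -0.83 and -0.50 in that order. The first was lowest and the second highest on the 4-OHT array, with log2 differences from vehicle of -0.62 and 0.49.

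Mrps7, a counterpart of bacterial S7 in the head of the small subunit, is read by probes that meet end to end on the plus strand of chromosome 11. The brightest gave a log2 difference of -0.11 between 4-OHT and vehicle and the other -0.47, so the small value printed for this gene depends on the probe. The remaining large gaps were in Mrpl39 (-0.38 for the brightest and -0.91 for the other), Mrpl50 (-0.51 and -0.09), Mrpl41 (-0.46 and 0.03) and Mrpl9 (-0.18 and 0.14).

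**Figure D3:**
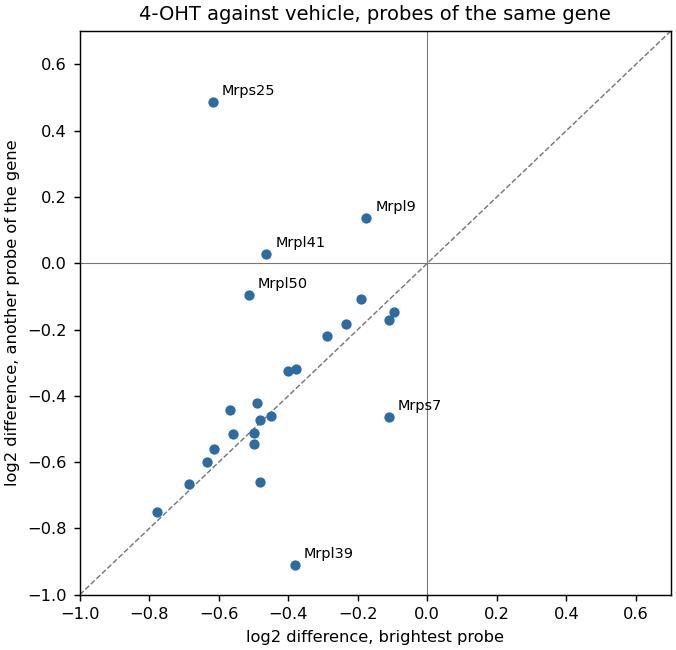
Log2 difference between the 4-OHT and vehicle arrays for the brightest probe of a gene (horizontal axis) and for another probe of the same gene (vertical axis), 25 further probes in 24 genes, with the dashed line marking equal values. Most points lie near that line; the 6 named genes have gaps above 2 spot SDs, and Mrps25 is at -0.62 and 0.49.

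Probe placement bears on some members. The files place the brightest probe of 6 members (Mrpl15, Mrpl23, Mrpl30, Mrpl48, Mrps26 and Mrps36) on another chromosome than the gene in RefSeq and give no position for that of 7 others. Over the 63 members left, the median log2 difference between 4-OHT and vehicle was -0.46. In 6 members the brightest probe shared a stretch of 20 bases with a probe of another gene name, and over the other 70 the median was -0.45.

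Related gene lists placed these values among other mitochondrial and ribosomal genes. These lists were drawn up with earlier results of these data known. Nuclear genes for oxidative phosphorylation subunits, the complexes that mitochondrial translation serves, had a median log2 difference of -0.77 between 4-OHT and vehicle. Of 82 measured genes, 77 were below 0, against 55.0% of all genes, and 70 were at least 1.5-fold lower, against 13.5%. They ranged from -1.32 for Ndufa4, a cytochrome c oxidase subunit, to 2.59 for Cox6a2, a subunit isoform of heart and skeletal muscle. Their median was thus lower than that of the mitochondrial ribosomal proteins under the same scaling.

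The 79 measured genes of cytosolic ribosomal proteins did not share this direction. Their median log2 difference between 4-OHT and vehicle was 0.09, with 55 above 0 and 24 below 0, against 55.0% of all genes below 0. With spike-in scaling it was -0.15 with 74 below 0, against 72.0% of all genes, whose median was then -0.31. Of the cytosolic ribosomal genes, 76 were in the brightest signal class. On the 4-OHT array, 14 of 79 cytosolic ribosomal genes and 77 of 82 oxidative phosphorylation genes had their lowest level. This held for 48.1% of genes well above background on all arrays.

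The 6 mitochondrial ribosomal proteins known by other names, which are components of the same ribosome, had a median log2 difference of -0.31, from -0.66 for Chchd1 to 0.05 for Gadd45gip1. Among genes that act beside the ribosome, the 26 for assembly and rRNA modification had a median of -0.25. Of these, 24 (92.3%) were below 0, against 55.0% of all genes. The 2 at least 1.5-fold lower (7.69%, against 13.5% of all genes) were Rpusd3 (a pseudouridine synthase, -0.69) and Mpv17l2 (-0.62). At the other end, Nsun4, an rRNA methyltransferase, had 0.54. Subunits of the TIM and TOM import complexes had a median of -0.48 over 23 genes, with 19 below 0, against 55.0% of all genes.

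The 16 mitochondrial translation factors had a median log2 difference of -0.35 between 4-OHT and vehicle. Of these, 15 were below 0, against 55.0% of all genes, and 4 (25.0%) were at least 1.5-fold lower, against 13.5%. Both initiation factors stood at opposite ends. Mtif3 had log2 levels of 0.87 with vehicle, -0.10 with 4-OHT, 0.39 with vitamin E and 0.17 with lutein, and its log2 difference was -0.97. Mtif2 had 5.61, 6.67, 5.42 and 5.76 in that order, with a log2 difference of 1.06; it was highest on the 4-OHT array and was the only factor above 0. Mrrf, the ribosome recycling factor, had -0.75.

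Genes for mitochondrial DNA transcription and replication had a median log2 difference of -0.16, from -0.75 for Tefm, an elongation factor, to 0.07 for Tfb2m, an initiation factor. Below 0 were 12 of 15, against 55.0% of all genes. Among 9 regulators of mitochondrial biogenesis the median was -0.12 and the values were widely spread. Ppargc1b, a coactivator, had -1.09 and Esrra, a nuclear receptor it works with, -0.55. Myc had 2.24, from a log2 level of -3.65 with vehicle to -1.41 with 4-OHT. None of the genes of mitochondrial DNA was matched by name, so the RNAs that this ribosome reads were not analysed here.

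**Figure D4:**
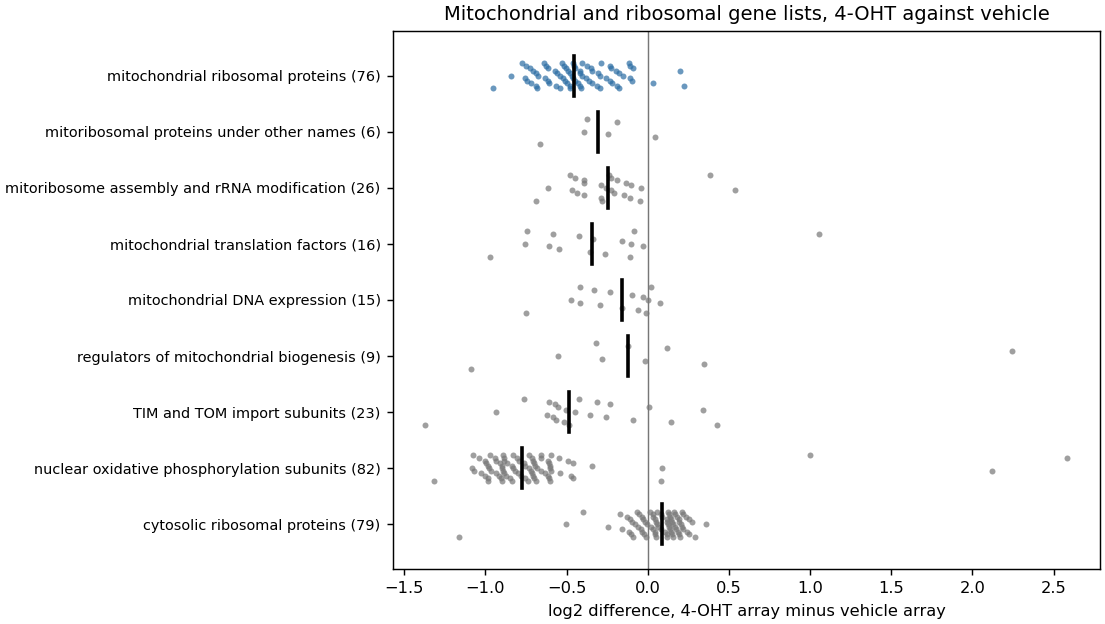
Log2 difference between the 4-OHT and vehicle arrays (horizontal axis) for each gene of 9 lists, with the number of genes measured in brackets and black bars at the medians. The 76 mitochondrial ribosomal protein genes (blue) centre on -0.45, between oxidative phosphorylation subunits at -0.77 and cytosolic ribosomal proteins at 0.09.

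Rod markers moved with these genes. All 14 rod markers were measured and all 14 were lower on the 4-OHT array than on the vehicle array, with a median log2 difference of -1.40, from -5.35 for Gnat1 (rod transducin) to -0.67 for Rom1. Their summed scaled signal was 3202 with vehicle, 1425 with 4-OHT, 2494 with vitamin E and 1849 with lutein. That of the 76 members was 1341, 976, 1246 and 1148, which is the same order of arrays with a narrower spread. Fewer cells of a type and less RNA per cell cannot be told apart in these pooled tissues, and the part of the rod signal in the values above was not tested.

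Markers of other cell types followed no single direction. Of 8 cone markers 7 were measured, with a median log2 difference of 0.60 between 4-OHT and vehicle and 5 above 0. The 6 markers of Müller glia had a median of -0.23, the 7 of dividing progenitors 0.04 and the 5 of ganglion cells -0.24. The summed signal of cone markers ranged over the 4 arrays from 120 to 201, nearly all of it from Gngt2, a cone transducin subunit. Gngt2 had log2 levels of 6.87 with vehicle, 7.47 with 4-OHT, 7.63 with vitamin E and 7.56 with lutein, whereas no other cone marker exceeded 1.22 on any array. Gnat2, another cone transducin subunit, was lower with 4-OHT by a log2 difference of -1.30. The summed signal of Müller glia markers was 79.4 with vehicle, 74.9 with 4-OHT, 87.9 with vitamin E and 78.6 with lutein. In the same order of arrays it was 30.6, 25.8, 33.6 and 24.3 for dividing progenitors. For ganglion cells it was 5.56, 3.42, 4.37 and 4.405. The 4-OHT array was thus lowest for Müller glia and ganglion cells. All 5 ganglion cell markers were below 0, against 55.0% of all genes. The 6 bipolar markers had a median log2 difference of -0.20 between 4-OHT and vehicle, with 3 above 0. Their summed signal was 24.9 with vehicle, 42.2 with 4-OHT, 20.5 with vitamin E and 23.9 with lutein, so it was highest with 4-OHT, where Cabp5 was higher by a log2 difference of 1.98 and Prkca lower by -0.61. Of 4 horizontal cell markers 2 were measured, with a summed signal of 2.03, 6.20, 1.97 and 2.85 in the same order of arrays. Onecut2 had a log2 difference of 1.67 and Lhx1 -0.35, while Onecut1 and Calb1 were at background. Of 7 pigment epithelium markers 4 were measured, with a summed signal of 8.93, 18.6, 15.4 and 18.0. Their median log2 difference was 0.04. Dct, a pigment enzyme, had 2.43 and Rlbp1, which was also counted among the Müller glia markers, 0.21. Tyrp1 had -0.13 and Pmel -0.30. Rpe65, Lrat and Best1 were at background on all arrays. The 5 amacrine markers had a median log2 difference of -0.07, with 4 below 0, against 55.0% of all genes. Their summed signal was 100 with vehicle, 97.2 with 4-OHT, 109 with vitamin E and 115 with lutein, so it was lowest with 4-OHT. Of 4 pluripotency markers, Nanog and Dppa5a were measured, with log2 differences of -0.62 and -0.31, and Pou5f1 and Zfp42 were at background on all arrays. Of 5 microglial markers 4 (Aif1, Cx3cr1, Ptprc and Tyrobp) were at background on all arrays. The part of these cells in the members' values was not tested.

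Promoters of the members were also searched, as a description only. RefSeq promoters (GRCm38.p6, 250 bases before to 50 after the start) matched 67 of 76 members. Letters known as the core of 3 factors' sites were searched on both strands. For NRF1 they were GCGC, any 2 bases, then GCGC, for YY1 AAGATGGCG, and for the ETS family, to which GABPA belongs, CCGGAAG. The end of the ETS letters can overlap the start of the YY1 letters, which it did in 0 of the members. The ETS letters were found in 24 of 67 member promoters (35.8%), against 9.93% of all 27025 genes with a promoter of this length. The NRF1 letters were found in 14 (20.9%, against 7.00%) and the YY1 letters in 8 (11.9%, against 1.64%), and 40 held at least 1 of the 3 (59.7%, against 16.6%). The members were all well above background, whereas the 27025 genes were taken whatever their signal here, so these shares do not compare like genes.

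Other lists held these letters too. At least 1 of the 3 was found in 53.4% of 58 promoters of measured cytosolic ribosomal protein genes and in 56.2% of 64 of measured oxidative phosphorylation genes. Within the members, the median log2 difference between 4-OHT and vehicle was -0.46 for the 40 with a match and -0.48 for the 27 without. The promoters of the members with the lowest and the highest difference are shown as the 250 bases before the start, matches in capitals.
Mrpl18, chr17:12916092-12916341, minus strand: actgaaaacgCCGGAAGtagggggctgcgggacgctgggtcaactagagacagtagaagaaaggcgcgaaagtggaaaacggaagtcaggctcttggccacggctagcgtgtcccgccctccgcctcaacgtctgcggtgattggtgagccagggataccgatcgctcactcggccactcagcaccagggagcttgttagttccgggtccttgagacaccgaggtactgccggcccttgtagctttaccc
Mrpl52, chr14:54426659-54426908, plus strand: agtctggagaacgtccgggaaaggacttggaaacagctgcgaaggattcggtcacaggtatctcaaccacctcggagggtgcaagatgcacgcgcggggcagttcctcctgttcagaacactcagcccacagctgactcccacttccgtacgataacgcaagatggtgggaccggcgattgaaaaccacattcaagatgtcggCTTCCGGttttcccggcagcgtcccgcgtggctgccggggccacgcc
Both hold the ETS letters, Mrpl18 beginning 240 bases before the start and Mrpl52 on the opposite strand beginning 47 bases before it.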

How the data were processed

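The arrays (1-colour, Cy3, 1 per group) were quantified in Agilent Feature Extraction, version 10.7.3.1, as the submitters' processing notes state. Each deposited spot intensity had its background removed and trends over the slide corrected, per the file headers, and arrays were not normalized to one another. The authors' value table holds a ratio, the intensity divided by 1 number per array, and served as an alternative. The lutein file was saved at 3 significant digits; gene names came from the vehicle file.

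Control and outlier spots were left out, intensities were log2-transformed, each array's 75th percentile was taken off, and a probe's spots were averaged. A gene was read from its brightest probe. Genes well above background on either array entered a comparison, a dim value raised to the array's lowest signal well above background. Limits of 2-fold and 1.5-fold were fixed sizes. With 1 array per group no test was run; the number of arrays limits the precision. Functions were tested on simulated data. Python 3.11.15, pandas 2.3.3, NumPy 2.4.6, R 4.3.3 and limma 3.58.1 (normexp, offset 50) were used, and 13 alternatives were tried, 2 of them added after seeing the data.

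Members, lists, rules and alternatives were chosen with earlier results of these data known. Members named are the 5 lowest and highest of each subunit for 4-OHT against vehicle, the 3 lowest and highest elsewhere, those past 2-fold and 18 with known roles. From each list up to 4 genes, the 2 lowest and 2 highest, could be named. Outside this rule, Gngt2 was named for its part in the summed cone signal, after values were seen, and so were markers at background. Mrpl34, Mrpl50 and Mrps35 were added for their 10 spots, and Mrpl9, Mrpl39 and Mrps25 for their probes, after values were seen. Exon and UTR annotation was not used here.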

Additional observations from a re-analysis of the deposited data

Results flagged for a closer look

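A probe of Mrps25 that was not used for that gene's value was higher on the 4-OHT array than on the vehicle array, by a log2 difference of 0.49, whereas the brightest probe of the gene gave -0.62. It was singled out because it is data outside the main measurement with a signal above that of the control array.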

How the results depend on the processing

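Each group was 1 array, so no replicate could be left out. No paired analysis was possible because there was only 1 sample per group. With quantile normalization the members' median log2 difference was -0.28 for 4-OHT against vehicle. It was 0.22 for vitamin E with 4-OHT against 4-OHT and 0.13 for lutein with 4-OHT against 4-OHT. The medians of all genes were then -0.07, 0.10 and 0.06, and 8 members were 1.5-fold lower with 4-OHT. With spike-in scaling (8 of 10 spike-in probes) the members' medians were -0.70, 0.69 and 0.42 and those of all genes -0.31, 0.43 and 0.26. For 4-OHT against vehicle 53 members were then 1.5-fold and 4 members 2-fold lower, and Mrpl52 was at -0.0217. The members' median for vitamin E with 4-OHT against vehicle was 0.0027. With a limit of 1.5-fold in place of 2-fold, 19 members passed for 4-OHT against vehicle, 4 for vitamin E with 4-OHT against 4-OHT and 1 for lutein with 4-OHT against vehicle, by construction of the limit. The cause of the other shifts was not tested. The remaining 208 of 221 medians, counts and subunit differences stayed within the spot SD or, for counts, within 1.5 times of the value given. Of 640 values of named genes under an alternative, 552 moved by less than the spot SD and 87 moved by more. The other 1 changed sign from a value more than 2 spot SDs away from 0. Smaller values that changed sign were counted only by the size of their move. Leaving out members by probe placement was chosen after seeing the data.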
